A study of Mus musculus with 5 samples.

Results

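Integrin and cadherin genes were followed across 5 whole-transcript mouse arrays. The set was taken by gene symbol. It held every integrin alpha and beta subunit and every numbered cadherin with a probe set of 1 gene, apart from Itgam, Itgb2, Cdh1 and Cdh19, and the brightest probe set stood for a gene with several. This gave 45 genes of 19938 measured, 24 of them integrin subunits (17 alpha and 7 beta) and 21 cadherins. RNA came from mouse embryonic stem cells (ESCs), in groups named 2i ESCs and S ESCs, and from mouse embryonic fibroblasts (MEFs), in groups named control MEFs, 4n 2i MEFs and 2n 2i MEFs, with 1 array per group. Every group carried the same F1 background, 129X1/SvJ by MSM/Ms. The name 2i usually stands for culture with inhibitors of the kinases MEK and GSK3, whereas the labels do not explain S, 2n or 4n, which serve here only as names. The study's title concerns female ESCs that keep the DNA methylation of the gametes, and the comparisons were taken to ask how culture of ESCs, and the making of MEFs from 2i ESCs, went with gene expression. The title number was 15 on the 2i ESC and the 2n 2i MEF sample. It was 36 on the S ESC, 4 on the control MEF and 2 on the 4n 2i MEF sample, so most arrays compared differed in this number too. The titles of the 2n and 4n 2i MEFs end in a further number, 1 and 3, which is not explained. The labels do not give age, sex, passage or the number of embryos or clones behind a sample.

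Integrins are receptors made of 1 alpha and 1 beta chain that hold cells to the extracellular matrix, and the pairing of the chains decides which matrix protein is bound. Cadherins are calcium-dependent adhesion proteins that join cells of the same kind to each other, and their tails bind catenins. In development, cells that leave an epithelium and become mesenchyme usually lose E-cadherin (Cdh1) and gain N-cadherin (Cdh2) and Cdh11, while fibroblasts use integrins with the beta 1 chain and with the alpha v chain to pull on collagen and fibronectin.

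The deposited values are linear intensities, analysed as log2(intensity + 1). Each array has a floor, the median of its probe sets of 1 gene, which lay between 221.6 and 242.1 intensity units. Values under it hold an unknown part of background. Markers separated the labelled cell types. Of 12 pluripotency markers, 12 were at or above this floor in both ESC groups and 2 in every MEF group (Klf2 and Klf4), whereas 11 or 12 of 12 fibroblast markers reached it on the MEF arrays and 5 or 6 on the ESC arrays. Of 14 macrophage and leukocyte markers, 11 reached the floor on the 4n 2i MEF array against 3 on each other MEF array, and their summed intensity was 24727 units there against 2287 (2n) and 2878 (control). In bulk RNA, fewer cells of a type and less RNA per cell cannot be told apart. Between 37.4% and 45.4% of all probe sets had identical values on a given pair of MEF arrays, and 21 of the 45 genes shared a value between 2 or more of these arrays, so a difference of 0 between MEF arrays is not read as measured equality. The 2 ESC arrays had identical values in 1.19% of all probe sets and in 0 of the 45 genes. Shared values thus went with the cell type, and their part in the ESC and MEF differences and tests cannot be told apart from it.

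Adhesion genes separated ESCs from MEFs in both families. Tested over all genes with at least 1 array at its floor, 14 of the 45 genes were lower in ESCs, 1 was higher, 12 were tested and not called, and 18 lay under the floor on every array and were not tested. A call needed a Benjamini-Hochberg adjusted p under 0.05 in limma and at least a 2-fold difference between the 2 ESC and 3 MEF arrays. Of all 11826 genes tested, 16.3% were called lower in ESCs, 16.6% higher and 32.9% in either direction. The 14 lower genes made up 31.1% of the 45 and 51.9% of the 27 tested. Of these 14, 7 were under the floor on both ESC arrays and entered the test only through the MEF arrays, so their count carries the filter's direction and the folds depend on background. The median difference was -0.31 over the 45 genes and 0.06 over all 19938 genes. The ranges of the ESC and MEF arrays did not overlap for 34 of the 45 genes, but neither did they for 77.2% of all genes, so separate ranges alone say little here. The spread behind these tests is that between conditions of a cell type. Nothing in the labels states separate cultures, so p-values measure only the spread between these arrays.

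**Figure D1:**
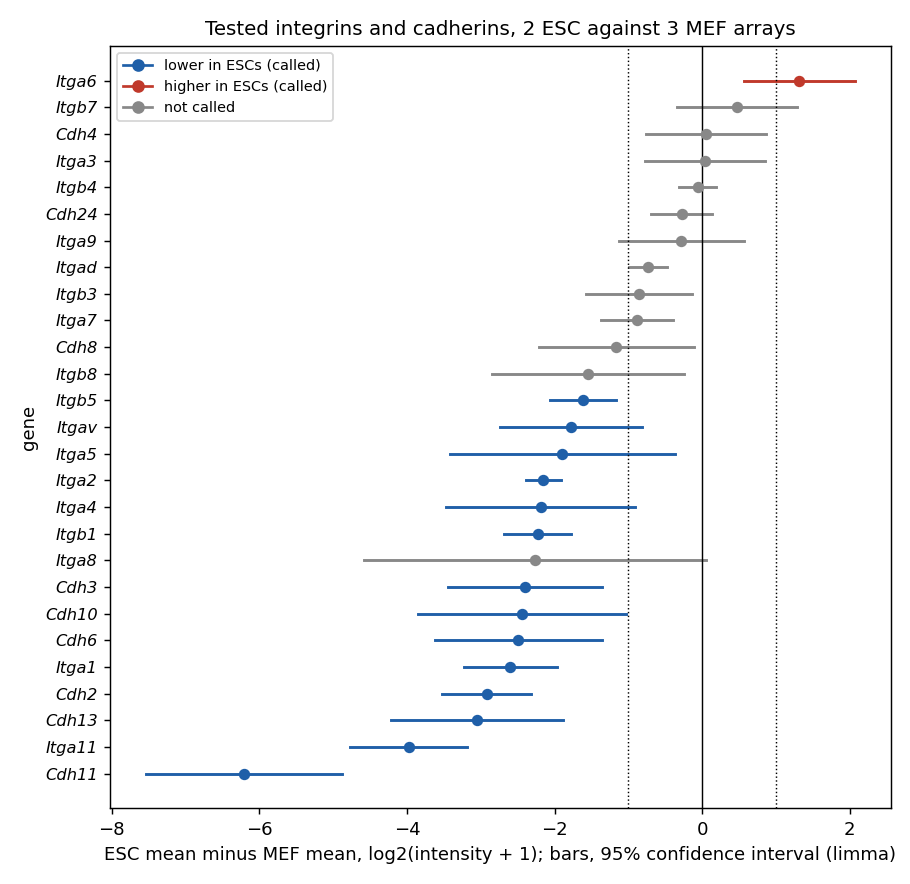
ESC mean minus MEF mean on the log2(intensity + 1) scale for the 27 tested integrin and cadherin genes; bars are 95% confidence intervals from limma over 2 ESC and 3 MEF arrays, and dotted lines mark 2-fold. The 14 genes called lower in ESCs run from Itgb5 (-1.61) to Cdh11 (-6.21), and Itga6 (1.32) is the gene called higher.

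Itgb1 (Entrez Gene 16412) encodes the beta 1 subunit, which pairs with most of the collagen, laminin and fibronectin binding alpha chains. It read 1164 units in 2i ESCs and 1256 in S ESCs against 5769.7, 4741 and 6641 in 2n, 4n and control MEFs. Both ESC arrays were thus low and close to each other, and every MEF array was high. The log2 difference was -2.23 (SE 0.17), a 4.68-fold deficit in ESCs, with an adjusted p of 0.00103 in limma.

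To show the control regions of integrin genes that were lower in ESCs, the 250 bases before the annotated start of Itgb1, Itgb5, Itga5 and Itga11 are printed 5′ to 3′ in the gene's sense, from RefSeq annotation of GRCm38.p6. Capitals mark the E-box CAGGTG or its complement CACCTG, the letters that factors of the Snai and Zeb families are known to bind, and the GC box GGGCGG or its complement CCGCCC, known from Sp1. The windows lie on the plus strand at chr8:128685404-128685653 (Itgb1), chr16:33829415-33829664 (Itgb5) and chr9:62677605-62677854 (Itga11), and on the minus strand at chr15:103366792-103367041 (Itga5).
Itgb1: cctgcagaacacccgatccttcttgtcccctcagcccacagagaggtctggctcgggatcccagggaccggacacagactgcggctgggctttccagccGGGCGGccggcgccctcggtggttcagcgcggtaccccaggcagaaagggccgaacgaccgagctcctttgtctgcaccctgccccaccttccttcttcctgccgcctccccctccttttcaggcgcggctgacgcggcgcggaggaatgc
Itgb5: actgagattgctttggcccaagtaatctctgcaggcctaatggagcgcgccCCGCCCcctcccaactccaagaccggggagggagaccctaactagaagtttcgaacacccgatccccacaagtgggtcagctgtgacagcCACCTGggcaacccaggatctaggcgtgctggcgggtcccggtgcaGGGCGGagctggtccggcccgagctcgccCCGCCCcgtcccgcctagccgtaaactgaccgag
Itga5: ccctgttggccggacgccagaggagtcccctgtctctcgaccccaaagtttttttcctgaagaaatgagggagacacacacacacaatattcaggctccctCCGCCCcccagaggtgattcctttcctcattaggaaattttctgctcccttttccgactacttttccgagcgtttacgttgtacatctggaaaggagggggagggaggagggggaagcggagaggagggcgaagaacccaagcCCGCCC
Itga11: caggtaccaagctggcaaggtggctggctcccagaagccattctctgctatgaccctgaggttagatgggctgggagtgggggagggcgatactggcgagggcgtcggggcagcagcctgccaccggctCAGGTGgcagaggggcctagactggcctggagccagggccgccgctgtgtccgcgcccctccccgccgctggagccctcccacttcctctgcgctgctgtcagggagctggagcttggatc
The Itgb1 window held 1 GC box and no E-box, the Itgb5 window 3 GC boxes and 1 E-box, the Itga5 window 2 GC boxes and no E-box, and the Itga11 window 1 E-box and no GC box, with no overlap between matches. Of the 45 genes, 30 had such windows (34 in all). The E-box stood in 8 of the 34 (23.5%) against 17.2% of all 32851 windows of this length, and the GC box in 11 of the 34 (32.4%) against 32.7%. Of the 10 windows of called genes, 2 (20.0%) held the E-box and 5 (50.0%) the GC box, too few windows to compare shares. The printed windows were picked by hand from those of integrins called lower, so they do not stand for the rest. A match is a stretch of letters and not a shown binding site.

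Of 4 alpha chains for collagen, 3 were lower in ESCs. Itga11, the collagen receptor chain of fibroblasts, read 123 and 189 units in 2i and S ESCs against 2409, 3123 and 1885 in 2n, 4n and control MEFs. Its log2 difference was -3.98 (SE 0.30), 15.7-fold, with an adjusted p of 0.000996 in limma. It was the integrin with the largest difference, and both ESC values lay under the floor. Itga1, whose product prefers basement membrane collagen, read 54.5 and 63.3 units in ESCs against 409.9, 422 and 272 in MEFs. The difference was -2.60 (SE 0.24; adjusted p = 0.00158 in limma). Itga2, the collagen receptor chain of platelets and epithelia, read 89.5 and 80.9 units in ESCs and 381 on every MEF array, the same value to all deposited digits. Its difference of -2.15 (adjusted p = 0.000297 in limma) therefore holds no measured spread among MEFs. The ESC values of Itga1 and Itga2 lay under the floor as well, so the size of their differences depends on background. Itga10, a chain known from cartilage, stayed between 129.6 and 153 units and under the floor on all arrays.

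Chains that bind the RGD sequence of fibronectin and vitronectin were lower in ESCs in 3 of 8 cases. Itga5, the alpha 5 chain of the main fibronectin receptor, read 639.7 units in 2i ESCs and 1985 in S ESCs against 5574, 2989 and 4417 in 2n, 4n and control MEFs. The ESC and MEF ranges were apart, but the S ESC value lay nearer to the 4n 2i MEF value than to the 2i ESC value on the log2 scale. The difference was -1.89 (SE 0.57; adjusted p = 0.0445 in limma), or 3.72-fold. Leaving out the 2i ESC array or any of the MEF arrays ended the call, at adjusted p values of 0.0536 to 0.177 in limma. Itgav, the alpha v chain, which activates latent TGF-beta when paired, read 1822 and 1238 units in ESCs against 5878, 3443 and 6709 in MEFs. Its difference was -1.77 (SE 0.36; adjusted p = 0.0143 in limma). Itgb5, a partner of alpha v in vitronectin binding, read 1577 and 1892 units in ESCs against 5705, 5795 and 4478 in MEFs. Here the arrays of each cell type were close together, and the difference was -1.61 (SE 0.17; adjusted p = 0.0022 in limma).

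The other RGD-binding chains did not pass. Itgb3, a further partner of alpha v, read 323 and 357 units in ESCs against 737, 439 and 714 in MEFs, with a difference of -0.85 (adjusted p = 0.0502 in limma). Itgb8, which also pairs with alpha v, read 73.1 and 72.2 units in ESCs against 262, 326 and 114 in MEFs, with a difference of -1.54 (adjusted p = 0.0503 in limma). Itgb3 missed both criteria and Itgb8 the adjusted p alone. Itgb8 was called with quantile normalization, with the mean of probe sets, with genes of identical MEF values left out and without the control MEF array. It is not among the members with several probe sets, so the mean of probe sets left its own values unchanged. Itga8, a chain known from kidney mesenchyme and smooth muscle, read 125 and 105 units in ESCs against 297, 1726 and 331 in MEFs. The 4n value stood far above the other MEF values, the MEF SD was 1.42 (n = 3), and the difference of -2.26 was not called (adjusted p = 0.0833 in limma). Without the 4n array, both Itga8 and Itgb3 were called lower in ESCs. Itga2b, the platelet chain, and Itgb6, known from epithelia, were under the floor on all arrays.

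Of 4 laminin receptor chains, 1 was called higher in ESCs and 3 were not called. Itga6, a laminin receptor chain known from stem cells and epithelia, was also the 1 member of both families called higher. It read 1737 and 2122 units in 2i and S ESCs against 749.7, 581 and 1045 in 2n, 4n and control MEFs. The difference was 1.32 (SE 0.28), 2.49-fold, with an adjusted p of 0.0167 in limma, and the ranges did not overlap. Its call was lost without the 2i ESC (adjusted p = 0.0982), S ESC (0.143) or 2n (0.055) array in limma. Its partner in hemidesmosomes, Itgb4, read 255 and 281 units in ESCs against 287, 265 and 287 in MEFs, close to the floor throughout (difference -0.06, 95% interval -0.32 to 0.19). Itga3, another laminin receptor chain, read 288 and 424 units in ESCs against 369.9, 427 and 251 in MEFs, with overlapping ranges and a difference of 0.04 (95% interval -0.77 to 0.85). Itga7, known from muscle, read 181 and 128 units in ESCs against 279, 309.5 and 260.4 in MEFs. Its difference of -0.88 passed the adjusted p (0.0151 in limma) but not 2-fold.

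Itga4 and Itga9 form a pair of related chains that bind fibronectin, VCAM1 and tenascin. Itga4 read 88.7 and 96.6 units in ESCs against 292, 335 and 792 in 2n, 4n and control MEFs. The control MEF value was well above the other MEF values, and the difference was -2.19 (SE 0.48; adjusted p = 0.0179 in limma). Both ESC values of Itga4 lay under the floor, so the size of this difference depends on background. Itga9 read 256 and 520.3 units in ESCs against 445, 445 and 442 in MEFs. The ESC values lay on either side of the MEF values, and the difference of -0.28 was not called (adjusted p = 0.482 in limma).

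None of 5 leukocyte integrins was called. Itgae, Itgal and Itgax were under the floor on all 5 arrays. The lowest of their values was 60.7 units and the highest 146. Itgal read 145 and 146 units in ESCs against 83.6, 89.0 and 89.0 in MEFs. Itgb7, a lymphocyte beta chain, reached the floor on the S ESC array alone, at 287 units against 145 in 2i ESCs and 147 on each MEF array. Itgad read 172 and 197 units in ESCs and 306 on each MEF array, and a second Itgad probe set went the other way (114 and 109 against 84.6), so no direction is given for it. The excluded Itgam read 83.4 units on the 4n 2i MEF array and 70.2 on the others of that cell type, and Itgb2 read 175 against 87.6 (2n) and 100.1 (control), all under the floor.

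**Figure D2:**
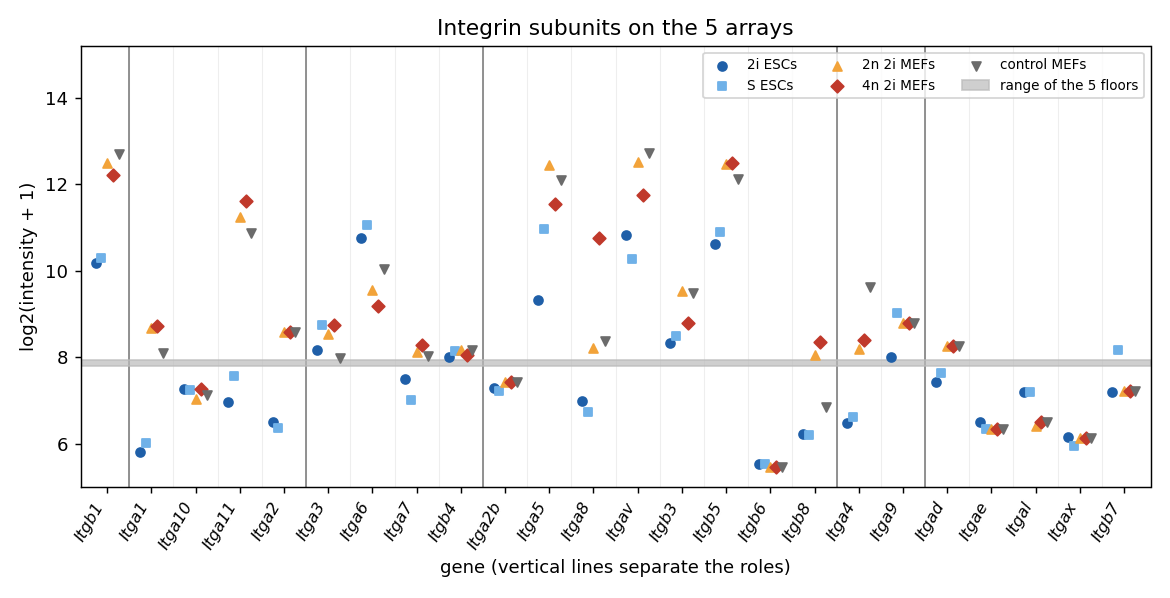
Value of each of the 24 integrin subunits on each of the 5 arrays, as log2(intensity + 1), grouped by role; the grey band spans the floors of the arrays. Of the 24 subunits, 17 have separate ESC and MEF ranges, as do 77.2% of all genes, so separate ranges alone say little. Those called are Itgb1, Itga1, Itga11, Itga2, Itga5, Itgav, Itgb5 and Itga4, with the MEF arrays above the ESC arrays, and Itga6, with the MEF arrays below. Levels of different genes come from different probe sets and are not to be compared.

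Among cadherins, 6 of 21 were lower in ESCs, none was higher, 3 were not called and 12 were under the floor on every array. Cdh11, the cadherin of mesenchyme and bone-forming cells, had the largest difference of both families. It read 79.0 units in 2i ESCs and 245 in S ESCs against 10071, 10988 and 10071 in 2n, 4n and control MEFs. Every MEF array was far above the ESC arrays. The 2i ESC value was under the floor and the S ESC value just reached it, so the fold depends on background. The log2 difference was -6.21 (SE 0.50), 73.9-fold, with an adjusted p of 0.00116 in limma. The equal 2n and control values leave part of the MEF spread unmeasured.

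Of the type I classical cadherins, which make the strong adherens junctions, Cdh2 and Cdh3 were lower in ESCs. Cdh2, or N-cadherin, read 842 and 682 units in 2i and S ESCs against 5907, 4546 and 7024 in 2n, 4n and control MEFs. Both ESC values were well above the floor, so the gene was measured in both cell types, at a difference of -2.92 (SE 0.23; adjusted p = 0.00106 in limma). Cdh3, or P-cadherin, read 338 and 664 units in ESCs against 2364, 3399 and 1964 in MEFs. Its difference was -2.40 (SE 0.39; adjusted p = 0.00757 in limma). Cdh4, or R-cadherin, read 409 and 259.6 units in ESCs against 235, 366 and 363 in MEFs, with overlapping ranges and a difference of 0.05 (95% interval -0.77 to 0.87). Cdh15, the cadherin of muscle precursors, was under the floor on all arrays. The excluded Cdh1, or E-cadherin, read 6027 and 6133 units in ESCs and 90.6 on each MEF array.

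Cdh6 and Cdh10, type II cadherins like Cdh11, and Cdh13, of neither type, were also lower in ESCs. Cdh6, known from kidney and neural crest, read 141 and 134 units in ESCs against 631, 554 and 1343 in 2n, 4n and control MEFs. The difference was -2.49 (SE 0.43; adjusted p = 0.00874 in limma). Cdh10, a cadherin of neural tissue, read 57.8 and 119 units in ESCs against 738, 283 and 453 in MEFs, with a difference of -2.44 (SE 0.53; adjusted p = 0.017 in limma). Cdh13, or T-cadherin, which is held in the membrane by a lipid anchor and lacks a catenin-binding tail, read 100.1 and 138 units in ESCs against 870.5, 657 and 1632 in MEFs. Its difference was -3.05 (SE 0.44; adjusted p = 0.00533 in limma). For these 3 genes the ESC arrays were all under the floor and the MEF arrays all above it, and the control or the 2n array was the brightest. Cdh8 and Cdh24 were tested and not called, though Cdh8 (-1.16, adjusted p = 0.0601 in limma) was called with quantile normalization. Cdh5, the cadherin of endothelium, read between 82.8 and 105 units on all arrays. The 18 untested genes of both families ranged from 37.6 to 185 units.

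**Figure D3:**
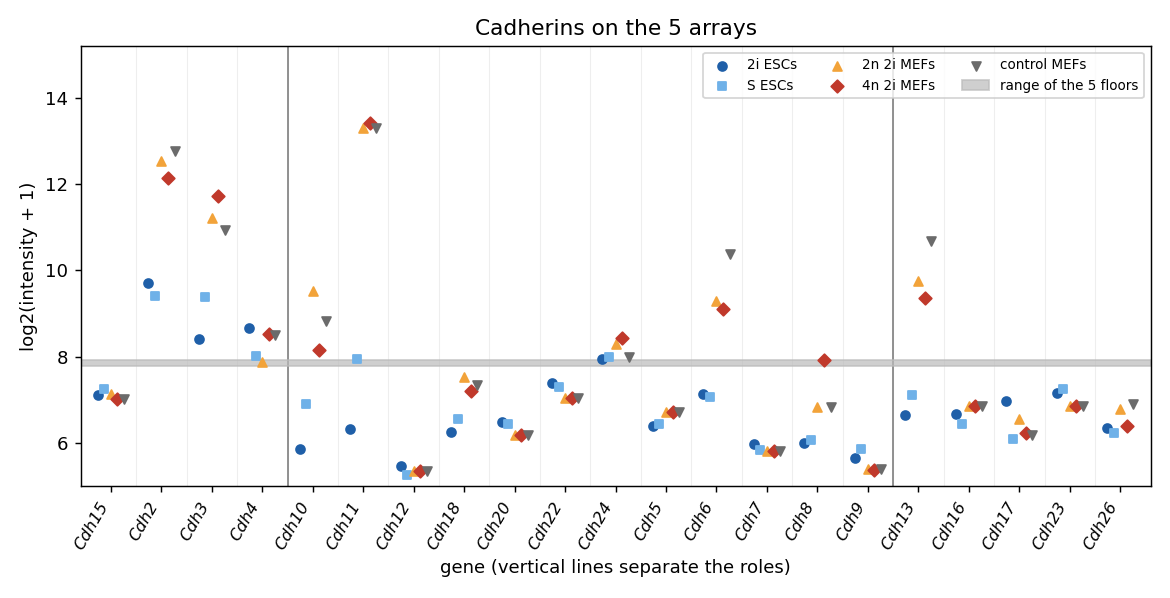
Value of each of the 21 cadherins on each of the 5 arrays, as log2(intensity + 1), grouped into type I, type II and other cadherins; the grey band spans the floors. Cdh11 is at 10071 to 10988 units on the MEF arrays and at 79.0 and 245 on the ESC arrays, and 12 cadherins stay under the band on all arrays.

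The counts depended on single arrays. Without the 2i ESC array 8 genes were lower and 0 higher, and without the S ESC array 9 and 0. Itgb1, Itgb5, Itga1, Itga2, Itga11, Cdh2 and Cdh11, 7 of the 15 called genes, were called without each array in turn. Of these, Itga2 has no measured spread among MEFs and Cdh11 has 2 equal values of 3, so their calls show nothing about stability. Itga1, Itga2 and Itga11 were also under the floor on both ESC arrays and entered the test only through the MEF arrays. Itga4, Itgav, Itga6, Cdh6, Cdh10 and Cdh13 lost the call without either ESC array, and Cdh3 without the 2i ESC array. In these fits the lone ESC array is assumed to vary like the MEF arrays.

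Genes for ligands and for the proteins under the receptors were mostly lower in ESCs where called. Of 28 measured genes for the adaptors and kinases under integrins, 27 were tested, 12 (44.4%) were lower in ESCs and 1 (3.7%) was higher, against 16.3% and 16.6% of all genes tested. Of the 12, Tgfb1i1 and Lims2 were under the floor on both ESC arrays and entered only through the MEF arrays. The lower genes included the adaptors Tgfb1i1 (log2 difference -5.30), Parva (-3.68), Zyx (-3.63) and Lims2 (-2.26), and the higher 1 was Fermt1 (2.05), the epithelial kindlin. The median over the tested genes was -0.89, against 0.06 over all genes tested. Of 29 measured ligands of integrins, 25 were tested, 17 (68%) were lower in ESCs and 4 (16%) higher. Of the 17, 5 were under the floor on both ESC arrays (Postn, Vcam1, Lama2, Lama4 and Col3a1). The 4 were Lama5 (2.69) and Lama1 (2.23), laminin chains of early basement membranes, Icam1 (1.71) and Lama3 (1.54), and among the lower ones were Postn (-7.27), Tnc (-5.12), Vcam1 (-4.83) and Col1a1 (-4.81). The laminin chains of mesenchyme were among the lower genes too, with Lama4 at -4.18 and Lama2 at -3.13. Among the lower ligands, Col1a1, Col1a2, Col3a1 and Postn also stand on the list of fibroblast markers, so their direction is not separate from the cell types compared.

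Of 12 tested genes for catenins and their partners, 9 were not called, 2 were higher in ESCs and 1 was lower, so that 25% were called against 32.9% of all genes tested. Beta-catenin (Ctnnb1), which links cadherins to alpha-catenin, read 7105 and 6076 units in ESCs against 5844, 6745 and 5345 in MEFs, a difference of 0.14 (adjusted p = 0.434 in limma). Ctnna2, the neural alpha-catenin, was lower in ESCs (-2.06), and Ctnnal1 (2.24) and Arvcf, a p120-catenin relative, were higher. Of 6 transcription factor genes known to repress E-cadherin, 5 (83.3%) were lower in ESCs, against 16.3% of all genes tested. Of these, Zeb2, Twist1 and Twist2 were under the floor on both ESC arrays, so that their entry carries the direction. Twist2 (-4.52), Zeb2 (-4.20), Snai2 (-4.10), Snai1 (-2.08) and Twist1 (-2.04) were called, and Zeb1 read 1006 and 809 units in ESCs against 1400, 1144 and 1144 in MEFs (-0.44, adjusted p = 0.0718 in limma).

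Between the ESC arrays, Itga5, Cdh11 and Itga9 were lower on the 2i array, each by 2-fold or more, and no member was higher. With 1 array per group this comparison has no replicate and no test. It takes a gene past the floor when the brighter array is at its floor, which 15 members were. Of all 10461 genes past the floor, 2.54% stood at or beyond 2-fold in that direction, 2.79% in the other and 5.33% in either. Itga5 was 3.10-fold lower (639.7 against 1985 units), Cdh11 3.08-fold (79.0 against 245) and Itga9 2.03-fold (256 against 520.3). Cdh11 was under the floor on the 2i array, and Itga9 fell within 2-fold with a pseudocount of 16 (-0.98). Just inside the 2-fold line were Itgb7 (log2 difference -0.98) and Cdh3 (-0.97), while Itgb1 (-0.11), Itgb3 (-0.15), Itgb5 (-0.26) and Itga6 (-0.29) differed little. The highest on the 2i array were Cdh4 (0.65), Itgav (0.56) and Cdh2 (0.31), all within 2-fold. The median of the 15 members was -0.26, against -0.04 over all genes past the floor. Fibronectin (Fn1), the ligand of the Itga5 product, was close on both arrays (9359 against 10241 units), whereas the ligands Thbs1 (209 against 3079) and Tnc (62.1 against 871) were lower on the 2i array. Both were under the floor there. Of 20 ligands past the floor in this pair, Thbs1 and Tnc were the 2 at least 2-fold lower and 0 were higher, with a median of -0.03. Summed fibroblast markers read 8308 units on the 2i array and 10985 on the S array, with 5 and 6 of 12 at the floor, and summed muscle markers 1820 and 3828, with 1 and 5 of 11. Vim alone gave 5970 and 7643 units of the fibroblast sums, and Acta2 gave 208 and 1348 of the muscle sums. Summed epithelial markers read 7724 and 11591 units, with 8 and 10 of 11 at the floor. The 2i array had the lower value, by 2-fold or more, for Epcam, Krt8, Cldn6 and Esrp1. It had the higher value, within 2-fold, for Cldn4 (3841 against 2276 units) and Cldn3 (530 against 431). The part of these cell types in the member differences was not tested.

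On the 2n 2i MEF array, Itgb8 was higher and Itga4 and Cdh6 lower than on the control MEF array. Of 25 members past the floor, the other 22 lay within 2-fold. Over all 10126 genes past the floor, 1.48% were at least 2-fold higher and 0.425% lower, together 1.91%. Itgb8 read 262 units against 114, 2.29-fold higher, and was under the floor in control MEFs. Itga4 read 292 units against 792, 2.71-fold lower, and Cdh6 631 against 1343, 2.13-fold lower. Cdh13 came close to 2-fold (870.5 against 1632 units, log2 difference -0.91). The abundant chains Itgb1 (-0.20), Itgav (-0.19), Itgb5 (0.35) and Cdh2 (-0.25) were within 2-fold, and 4 members had a difference of exactly 0. Vcam1, the cell surface ligand of alpha 4 integrin, read 2586 units against 3917 (-0.60).

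The 4n 2i MEF array showed the same 3 genes beyond 2-fold and 3 more. The comparison shares its control array with the 2n comparison, so the error of that array enters both. Of 26 members past the floor, Itga8, Itgb8 and Cdh8 were higher and Itga4, Cdh6 and Cdh13 lower, against 5.26% and 3.42% of all 10313 genes past the floor, together 8.68%. Itga8 was 5.20-fold higher (1726 against 331 units) and had the largest difference of any member in this pair. Itgb8 read 326 units against 114 (2.84-fold) and Cdh8, a neural cadherin, 244 against 114 (2.14-fold), just past the 4n floor of 234.6 units. Cdh13 was 2.48-fold lower (657 against 1632 units), Cdh6 2.42-fold (554 against 1343) and Itga4 2.36-fold (335 against 792). Itgav, at 3443 against 6709 units, lay just within 2-fold (-0.96).

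Itga8 and Cdh8 also separated the 4n from the 2n 2i MEF array. Itga8 read 1726 units against 297 (5.79-fold higher) and Cdh8 244 against 114 (2.14-fold), while Cdh10 read 283 against 738 (2.60-fold lower). Of all 10266 genes past the floor in this pair, 3.33% were at least 2-fold higher on the 4n array and 2.36% lower, together 5.69%, and 26 members were past it. Itgb8 (0.31), Itga4 (0.20) and Cdh6 (-0.19), lay within 2-fold in this pair. Itga5 (-0.90), Itgav (-0.77) and Itgb3 (-0.75) were lower on the 4n array but within 2-fold.

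Markers of fibroblasts and of other cell types moved on these arrays as well. Of 12 fibroblast markers, 12, 12 and 11 reached the floor on the 4n, 2n and control arrays, with sums of 91254, 82717 and 79424 units. Against the control array, Fap, Lum and Col3a1 were at least 2-fold higher on the 4n array and Fap on the 2n array. S100a4 was at least 2-fold lower on the 4n array alone (1356.5 units, against 4999 on the 2n and 7578 on the control array). Of 6 glial and neural crest markers, 5 reached the floor on the 4n 2i MEF array and 1 on each other MEF array, with sums of 3360 units (4n), 1314 (2n) and 1101 (control). The excluded Cdh19, a cadherin of Schwann cell precursors, read 589 units on the 4n array, 101 on the 2n and 44.3 on the control array. Of 8 mesothelial markers, 7 reached the floor on the 4n, 6 on the 2n and 2 on the control array, with sums of 9017, 5395 and 1746 units. Of 10 endothelial markers, 2, 3 and 3 reached the floor on the 4n, 2n and control arrays, with sums of 1999, 2146 and 2736 units. Among them, Flt1 read 637 and 664 units on the 4n and 2n arrays against 1452 on the control array. Emcn went the other way, at 179 and 362 units against 58.9. Smooth and skeletal muscle markers summed to 32052, 30520 and 30013 units on the 4n, 2n and control arrays. Acta2, with the same 16818 units on each, makes up most of these sums. In the same list Des, the muscle intermediate filament gene, read 1339 and 738 units on the 4n and 2n arrays against 96.3 on the control array, and Myod1, Myog and Pax7 were under the floor on each. The part of these cell types, and of the macrophage markers, in the values of Itga8, Itgb8, Cdh8, Itga4, Cdh6 and Cdh13 was not tested.

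**Figure D4:**
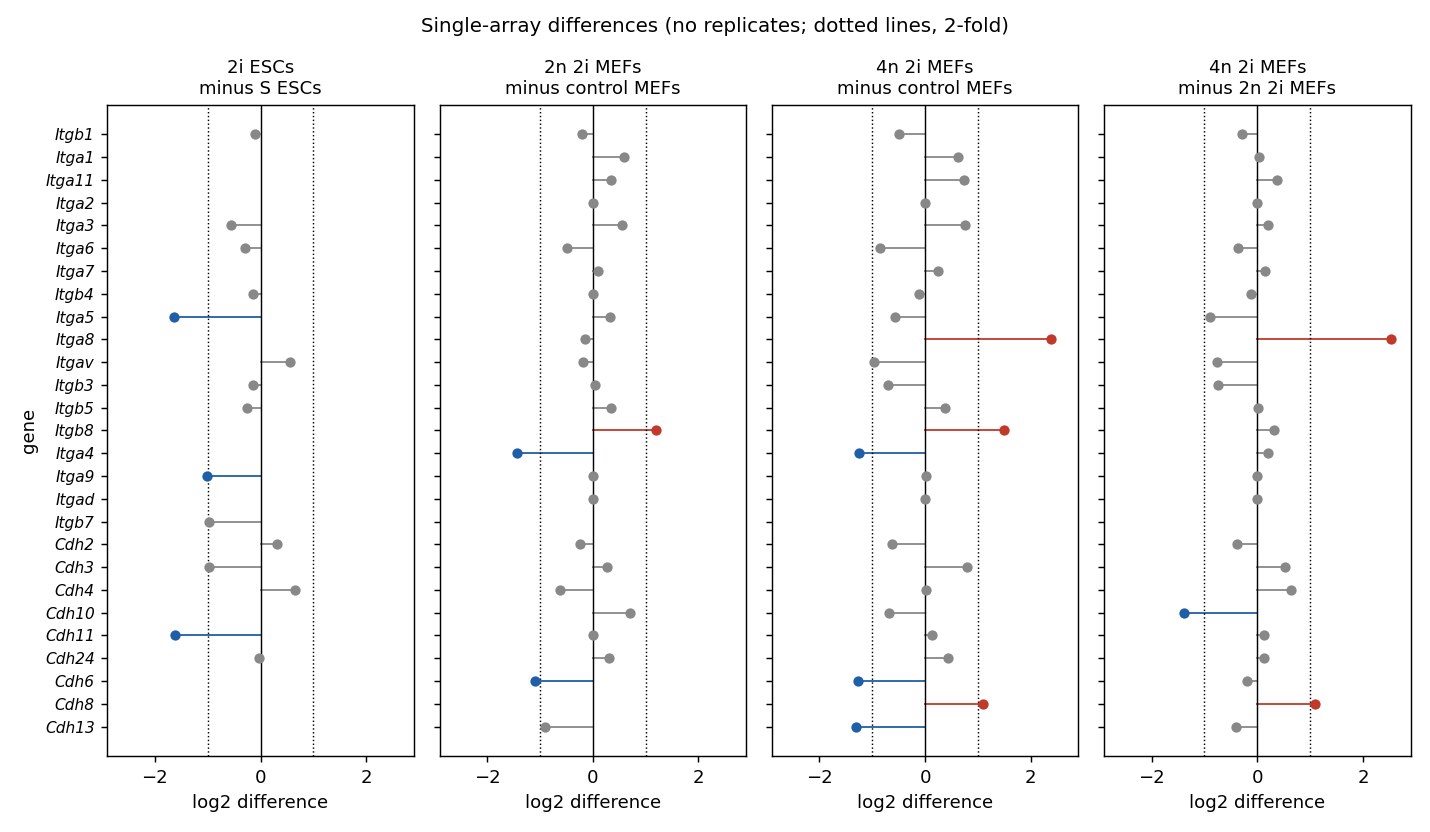
Log2 differences between single arrays for the integrin and cadherin genes past the floor, in 4 pairs; coloured points are at least 2-fold apart (red higher, blue lower on the first array), dotted lines mark 2-fold and there are no replicates. Itga8 stands at 2.38 and 2.53 on the 4n 2i MEF array against control and 2n, and Itga5 at -1.63 on the 2i against the S ESC array.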

How the data were processed

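Total RNA of 5 samples was column-purified, fragmented and biotinylated for whole-transcript arrays (labels' protocols). The deposited values are linear intensities of 28853 probe sets. The sources used here do not say how the authors corrected, summarised and normalized them. Column medians were 170.2 to 192.0 units.

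Values were analysed as log2(intensity + 1). Of the probe sets, 21789 had 1 gene symbol, 1621 several and 5443 none, and those with several named no gene. Symbols were updated through Entrez Gene numbers (21698 matched) to the RefSeq table of GRCm38.p6. The probe set with the highest mean log2 value stood for a gene, and 3 members had several. ESC arrays (2) were compared with MEF arrays (3) with limma 3.58.1 (lmFit, eBayes) in R 4.3.3 over 11826 genes, after a test on simulated data. Pairs of single arrays were described past 2-fold. Arrays have no sequencing depth, and their number limits the precision.

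Members and gene lists were chosen with earlier results of these data known. By the naming rule, members called, or 2-fold apart in a pair, are given on all arrays, other members by range, and of each list the up to 4 called genes with the largest difference. Other members given on all arrays, and other genes of the lists named (Fermt1, Lama1 to Lama5, Icam1, Fn1, Col1a2, Col3a1, Thbs1, Ctnnb1, Twist1, Zeb1, Pcdh19, Pcdh20, Fat1, Fat3, Dchs1, Des), were chosen after their values were seen. The same holds for the marker genes Vim, Fap, Lum, S100a4, Flt1, Emcn, Acta2, Epcam, Krt8, Esrp1, Cldn3, Cldn4 and Cldn6. Alternatives were the floor, quantile normalization, the mean of probe sets, a pseudocount of 16, 3-fold, a trend with a robust prior, genes without identical MEF values, and leaving out each array. Python 3.11.15, numpy 2.4.6, pandas 2.3.3 and matplotlib 3.10.9 were used.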

Additional observations from a re-analysis of the deposited data

How the results depend on the processing

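Each of the 15 genes called between ESCs and MEFs kept its direction wherever it was tested. Apart from leaving out arrays, only quantile normalization and the pseudocount of 16 changed the differences of these genes. In the other settings their direction was fixed in advance. Of 129 values under settings other than leaving out an array, 127 kept the call, which for this reason says little about stability. The exceptions were Itga5 with no floor (adjusted p = 0.062 in limma; 0.0322 to 0.177 over its alternatives) and Itga6 at 3-fold. The 14 lower genes became 8 to 15 and the 1 higher gene 0 to 1 when each array was left out, and 0 genes were higher at 3-fold. With genes of identical MEF values left out of the fit, Cdh11 and Itga2 were no longer tested and Itgb8 was called. Quantile normalization added Cdh8 and Itgb8, for 16 lower genes. The mean of probe sets added Itgb8, though it left the values of that gene unchanged. With a pseudocount of 16, or at 3-fold, Itga9 was no longer counted as lower in 2i than in S ESCs. With the floor at the 75th percentile, Cdh10, Itga1, Itga2 and Itga4 were not tested, 1 member was at least 2-fold lower in 2i than in S ESCs, 0 were higher and 1 lower in 2n 2i against control MEFs, 1 was higher in 4n 2i against control MEFs, and 1 was higher and 0 lower in 4n against 2n 2i MEFs. At 3-fold, 0 were higher and 0 lower in 2n 2i against control MEFs, 1 higher and 0 lower in 4n 2i against control MEFs, and 1 higher and 0 lower in 4n against 2n 2i MEFs. Both settings keep fewer genes by construction. Choosing the brightest probe set on the linear scale, an alternative added after seeing the data, called Cdh18 lower in ESCs as well. Signals near the floor limit what the arrays can show. No paired analysis was possible because each group had 1 array and no replicate number is shared across the arms, apart from the title number 15 on 1 ESC and 1 MEF sample.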

Other observations

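Other cadherin families were measured too. Of 12 non-clustered protocadherins, 6 were tested and 5 (83.3%) were lower in ESCs, against 16.3% of all genes tested: Pcdh18 (log2 difference -5.10), Pcdh7 (-4.37), Pcdh9 (-3.86), Pcdh11x (-3.59) and Pcdh19 (-3.46). All but Pcdh19 were under the floor on both ESC arrays and entered the test only through the MEF arrays. Pcdh20 read 509 units on the 4n 2i MEF array against 112 and 83.1 on the 2n and control arrays. Of 21 measured genes of the desmosomal, Fat, Dachsous, Celsr and calsyntenin group, 11 were tested, 4 (36.4%) were higher in ESCs and 3 (27.3%) lower, against 16.6% and 16.3%. Of the 3, Fat3 and Fat4 were under the floor on both ESC arrays. Dsg2, a desmosomal cadherin, read 537 and 407 units in ESCs and 61.2 on each MEF array (2.91). The planar polarity gene Celsr1 (2.18) and Cdhr1 (2.17) were higher as well. Fat4 (-4.01) and Fat1 (-1.63) were lower, and Dchs1, the ligand of Fat4, read 1461 units on the 4n array against 402 and 292 on the other MEF arrays.

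A gene's probe sets did not always tell the same story. Besides its own probe set, Cdh11 was named with 2 other genes by 3 probe sets that read 2351 to 8055 units on all 5 arrays, with ESC minus MEF differences of -0.20 to -0.52. The difference at the Cdh11 probe set was -6.21. The probe sets of Cdh24 differed in sign (-0.27 and 0.15), as did those of Itgad (-0.73 and 0.40). For Cdh18 they agreed in sign but not in size (-0.95 and -1.72), and their mean log2 brightness was nearly equal (6.99 and 6.95).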
